A study of Arabidopsis thaliana with 3 samples.

Results

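The control leaf material of an Arabidopsis thaliana study was compared between 2 days and the start of the experiment. The comparison holds 2 of the study's 3 RNA-seq libraries, the 2-day control and T0, chosen by their labels, and describes 20012 measured genes of the 33602 listed in each count table. All libraries came from Col-0 plants and from the first pair of rosette leaves, and all carry the age of 12 days after sowing. The seedlings grew on half-strength MS medium at 22 °C with 16 h of light and 8 h of dark. The 2-day control is labelled as 2 days of control treatment and T0 simply as control. The other library, leaf explants 2 days after wounding, was kept on B5 medium without carbohydrate, a culture in which Arabidopsis leaf pieces can form new roots. The labels do not say whether the leaves of the 2-day control were detached, on which medium they stood, which part of the leaf was taken, or at what hour either library was sampled. Age is labelled alike in both, so whether the 2-day leaves were also 2 days older is not stated. In this design 2 days of time, hour of sampling, leaf age and handling cannot be told apart.

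A young rosette leaf in the light makes light-harvesting proteins, exports sugar and is still growing, and much of its transcription follows the circadian clock. In the clock, the MYB factors CCA1 and LHY act around dawn, PRR9, PRR7 and PRR5 follow through the day, and GI, TOC1 and LUX act towards evening. Cold, drought and touch genes, shade genes and auxin response genes are all known to swing with the clock and with light. Leaves that lack sulphate or iron, or that accumulate sugar, switch on gene sets of their own, and those sets were described here one by one.

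Each side is a lone library, so the spread between plants is unknown and the values carry neither a p-value nor a standard error. The 2-day control held 45097732 gene counts and T0 43099934, so 1 count was worth 0.0212 CPM in the 2-day control, against 0.0262 CPM at T0. CPM, the usual share of a library scaled to a fixed total of counts, was computed after TMM scaling, which brings libraries to a common level by a trimmed mean of gene ratios. Each fold is the 2-day control over T0, "times lower" is its inverse, and both carry in brackets an exact 95% binomial interval. With 1 library a side, this interval covers counting error only. Reads copied by PCR and not tagged by molecule can repeat 1 molecule, which would make it too narrow. A gene was measured if it had at least 30 counts over the 3 libraries and at least 1 in the compared pair, and it was called higher or lower where the whole interval lay beyond 2-fold. A library at 0 counts gives a bound in place of a ratio, and an "at least" fold is then the nearer end of the interval. In whole leaves, fewer cells of a type and less RNA per cell cannot be told apart.

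Of the 20012 measured genes, 1813 (9.06%) were higher in the 2-day control and 1643 (8.21%) were lower. The other 16556 genes (82.7%) were neither. Higher and lower counts of the lists below are to be read beside these shares of all measured genes, and several lie near them. The median log2 ratio was 0.07, the 25th percentile was -0.38 and the 75th 0.58, and intervals lay wholly beyond 8-fold for 183 higher and 199 lower genes. Of all calls 52.5% were higher with TMM scaling. Scaling by total counts moved every log2 ratio up by 0.24 and gave 2546 higher and 1214 lower genes, a share of 67.7% higher. With the 100 most abundant genes left out of the totals, the calls were 2338 higher and 1307 lower, or 64.1% higher. Of the genes given as called here, DIN10, GWD1, PHYA, LHCA2, JAZ5, SOBIR1, CYCD1;1, KAT1, CLV1, TMO5 and RS40 were neither with total counts, and ETR2 and RL5 were neither with the size factors of DESeq2 and with TMM over the 2 libraries alone. With an interval at an error rate of 0.001 in place of 0.05, bHLH101, YUC6, SMR4, CUC3, PLT7, ZIP4, JAZ5, KAT1, ETR2 and RL5 were neither.

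The 2 directions differed in abundance. The lower genes held 7.50% of all counts in the 2-day control, against 22.0% at T0, whereas the higher genes held 7.24% in the 2-day control, against 1.79% at T0. Among 77 genes with a mean of at least 1000 CPM, 1 was higher and 29 (37.7%) were lower. The higher gene was LOX2, a chloroplast lipoxygenase at the start of jasmonate synthesis, at 2065 CPM in the 2-day control, against 410 CPM at T0, 5.03-fold (4.95 to 5.12). Among 4829 genes of 1 to 10 CPM the order was the other way, with 755 higher and 396 lower. Of the 100 most abundant genes at T0, 48 were lower and 0 higher in the 2-day control.

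**Figure D1:**
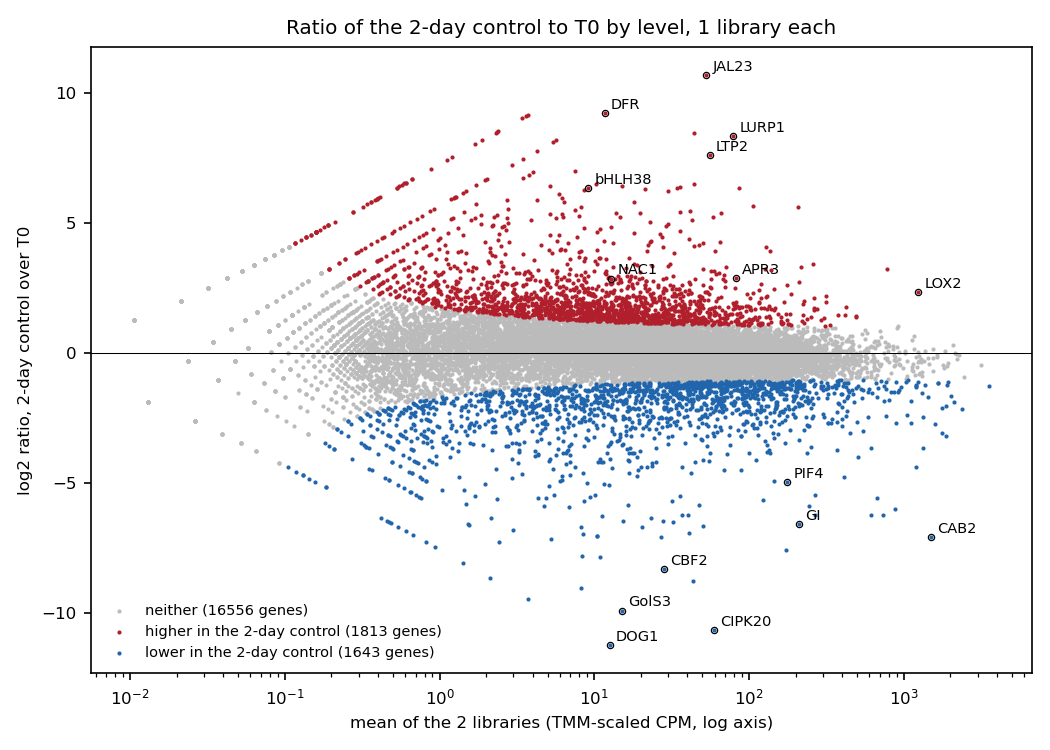
Log2 ratio of the 2-day control over T0 for 20012 measured genes, plotted against the mean level of both libraries in TMM-scaled CPM on a log axis. Each point is 1 gene, coloured by its call, with 1813 genes higher and 1643 lower; at the right end, above 1000 CPM, 29 of 77 genes are lower and 1 is higher.

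The genes farthest past the limit on the higher side belonged to defence, anthocyanin synthesis and lipid transfer. JAL23, a lectin of the jacalin family, had 5005 counts in the 2-day control, against 2 at T0, a ratio of 2022 (559 to 16701). LURP1, named for its response to a pathogen, reached 157 CPM in the 2-day control, against 0.472 CPM at T0, 333-fold higher (210.3 to 562). The thionin gene THI2.1, whose product is an antimicrobial peptide, stood at 87.9 CPM in the 2-day control, against 0.236 CPM at T0, 373-fold higher (196 to 816). The others among the 12 were DFR, GSTF12 and UF3GT of anthocyanin synthesis, the lipid transfer protein genes LTP2, LTP3 and EARLI1, the senescence-associated gene SAG13, the myrosinase-binding protein gene MBP1 and PCC1, named for its control by pathogens and the clock. SAG13, UF3GT and LTP3 had 344, 350 and 320 counts in the 2-day control, against 0 at T0. They were at least 74.9-fold, 76.3-fold and 69.7-fold higher.

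On the lower side stood mainly cold, clock and light genes. CIPK20, a protein kinase of the calcineurin B-like interacting family, had 3 counts in the 2-day control, against 4504 at T0, 1858 times lower (635 to 9013). DOG1, known for its control of seed dormancy, had 0 counts in the 2-day control, against 960 at T0, at least 321 times lower. The locus numbers of CIPK20 (AT5G45820) and DOG1 (AT5G45830) are adjacent, and both were called lower. GolS3, the clock gene PRR9, the antenna gene CAB2, the AP2 factor gene ddf2, the terpene synthase gene TPS03, CBF2, CBF1, LTI30, GI and BBX28 made up the rest of the 12. BBX28, a B-box factor of light signalling, had 0.995 CPM in the 2-day control, against 99.6 CPM at T0.

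**Figure D2:**
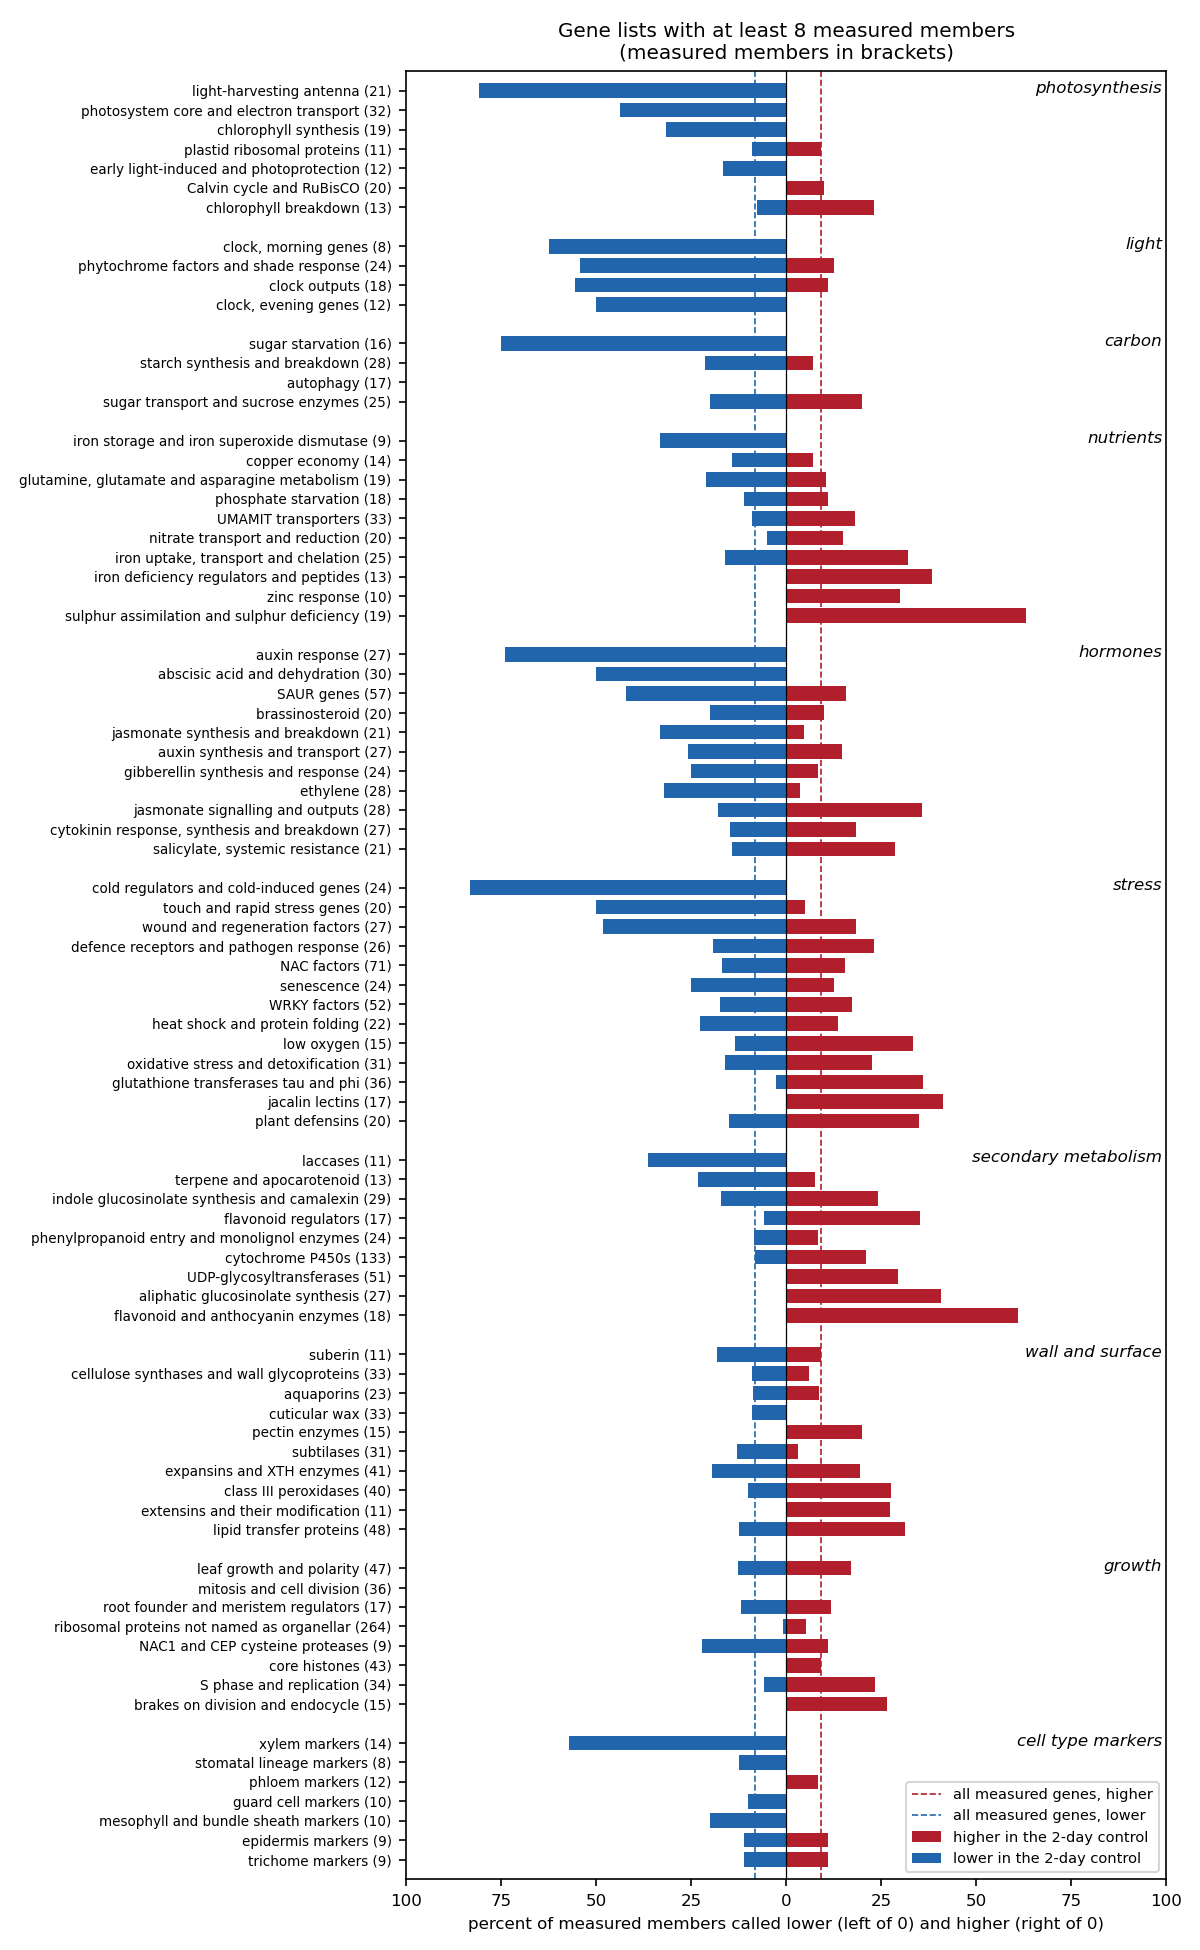
Percentage of measured members called higher (right of 0, red) and lower (left of 0, blue) in the 2-day control against T0, for gene lists with at least 8 measured members. Dashed lines mark all measured genes, 9.06% higher and 8.21% lower; cold, antenna and sugar starvation genes extend farthest to the left, and sulphur and flavonoid genes to the right.

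Of 8 morning genes, 5 were lower and 0 higher, and their median log2 ratio was -5.56 beside 0.07 for all measured genes. CCA1, a MYB repressor at the core of the clock, had 0.551 CPM in the 2-day control, against 32.3 CPM at T0, 58.7 times lower (39.9 to 90.2). PRR7, a repressor of the morning genes, had 7.10 CPM in the 2-day control, against 528 CPM at T0, 74.3 times lower (66.7 to 83.1). The coactivator genes LNK1 and LNK2 were 44.97 times (35.7 to 57.5) and 49.97 times (43.8 to 57.2) lower. PRR9 had 1 count in the 2-day control, against 627 at T0, 776 times lower with an interval of 139 to 30698. LHY did not follow its partner CCA1: it had 3.07 CPM in the 2-day control, against 2.04 CPM at T0, a ratio of 1.5 (1.13 to 2.00), low in both libraries.

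Of 12 evening genes, 6 were lower and 0 higher (median -1.01). GI, a large protein that links the clock to flowering, had 4.38 CPM in the 2-day control, against 416 CPM at T0, 94.9 times lower (82.8 to 109). PRR5 was 58.3 times lower (52.7 to 64.6) and FKF1, a blue-light receptor that degrades flowering repressors, 13.3 times lower (12.4 to 14.3). LUX was 6.56 times lower (6.16 to 6.98) and TOC1 2.84 times (2.75 to 2.92). The other partners of LUX in the evening complex did not pass, with ratios of 1.39 (1.34 to 1.44) for ELF3, and for ELF4 25.8 CPM in the 2-day control beside 36.9 CPM at T0.

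Among 18 clock outputs, 10 were lower and 2 higher (median -1.14). RVE7 (AT1G18330), a MYB factor gene, was 105 times lower (66.3 to 178), although its counts are uncertain because near-identical copies exist. BBX24 was 17.4 times lower (16.0 to 19.0), and CDF3, a repressor of CONSTANS, 16.1 times (13.2 to 19.9). CONSTANS (CO), the activator of flowering in long days, was 3.75-fold higher (3.15 to 4.49), and RVE2, a MYB gene related to CCA1, was 19.4-fold higher (17.0 to 22.1), at 123 CPM in the 2-day control, against 6.37 CPM at T0. The labels hold no sampling hour, and its part in the clock values was not tested.

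More light and shade genes were lower than higher, 13 against 3 of 24 (median -1.64). PIF4, a growth-promoting factor that phytochrome degrades in the light, had 10.9 CPM in the 2-day control, against 342 CPM at T0, 31.5 times lower (28.8 to 34.4). PIF5 was 14.5 times lower (13.5 to 15.5), and the shade-induced homeobox gene ATHB2 17.2 times (15.2 to 19.6). PAR1 and HFR1, which restrain the shade response, were lower too, by 5.08 times (4.79 to 5.40) and 4.45 times (3.90 to 5.08). HY5 and its homologue HYH, which promote light-dependent development, were the higher members together with RL5. HY5 had 14.2 CPM in the 2-day control, against 2.33 CPM at T0, 6.08-fold (4.87 to 7.68), and HYH was 5.37-fold higher (4.03 to 7.29). Phytochrome A (PHYA) was lower by 2.43 times (2.36 to 2.49), whereas PHYB, PIF1, PIF3, PIF7 and COP1 did not pass.

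Antenna genes were lower almost throughout. Of 21 light-harvesting genes, which encode the chlorophyll-binding proteins around photosystems I and II, 17 were lower and 0 higher (median -2.11). Their summed level was 10370 CPM in the 2-day control, against 46609 CPM at T0. The fall was uneven within the family. LHCB1.1 (CAB2) had 21.8 CPM in the 2-day control, against 2963 CPM at T0, 136 times lower (128 to 145). The LHCB2 genes LHCB2.1, LHCB2.2 and LHCB2.3 were lower by 63.5, 75.4 and 75.8 times. LHCB1.3 (CAB1) was lower by only 2.40 times (2.38 to 2.42), at 2095 CPM in the 2-day control, against 5032 CPM at T0. LHCB1.1, LHCB1.2 and LHCB1.3 are near-identical neighbours, so reads could be split among them. Every photosystem I antenna gene from LHCA1 to LHCA4 was lower, from 2.25 times for LHCA2 (2.22 to 2.27) to 8.34 times for LHCA4 (8.21 to 8.47), while LHCA5, LHCA6, LHCB4.3 and LHCB7 were neither.

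The photosystem cores held a smaller share of lower genes than the antenna. Of 32 genes for core subunits and electron carriers, 14 were lower and 0 higher (median -0.87), with 9 lower under scaling by total counts. PSAD-2, a stromal subunit of photosystem I, was 5.54 times lower (5.41 to 5.67) and PSAF 3.27 times (3.23 to 3.32). PETC of the cytochrome complex, the plastocyanin genes PETE1 and PETE2 and the ferredoxin genes FD1 and FD2 were neither. In the Calvin cycle, 0 of 20 genes were lower and 2 higher, and the median of -0.21 changed sign to 0.03 under scaling by total counts. RBCS1A, a RuBisCO small subunit gene, had 2022 CPM in the 2-day control, against 2379 CPM at T0, 1.18 times apart (1.17 to 1.19). RBCS1B had 714 CPM in the 2-day control, against 266 CPM at T0, 2.68-fold higher (2.62 to 2.74), and the transketolase gene TKL2 was 3.27-fold higher (2.83 to 3.79).

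Of 19 chlorophyll synthesis genes, 6 were lower and 0 higher (median -0.66). PORA, a light-dependent protochlorophyllide reductase known from seedlings leaving the dark, had 0.148 CPM in the 2-day control, against 16.3 CPM at T0, 110.0 times lower (53.1 to 275), and PORB was 3.47 times lower (3.41 to 3.53). CAO, which makes the chlorophyll b of the antenna, was 11.1 times lower (10.5 to 11.8). HEMA1, the entry step of the pathway, was 7.91 times lower (7.69 to 8.13), and CHLH, a subunit of magnesium chelatase, 6.62 times (6.52 to 6.72). CHLI1 and CHLD, the other subunits of the chelatase, and CHLM and CHLG did not pass. Of 12 photoprotection and carotenoid genes, 2 were lower and 0 higher (median -0.38), and 10 were neither. The lower ones were BCH2, a beta-carotene hydroxylase, by 34.5 times (24.4 to 50.4), and ZEP (ABA1) by 13.3 times (12.7 to 13.8). The chlorophyll breakdown list of 13 genes also holds the senescence factor genes ORE1 and NAP, and 3 members were higher and 1 lower. CLH1, a chlorophyllase, was 4.87-fold higher (4.59 to 5.18). ORE1 was also among the higher members, and the lower member was NAP. PAO, PPH and NYE1 of the main breakdown route were neither.

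**Figure D3:**
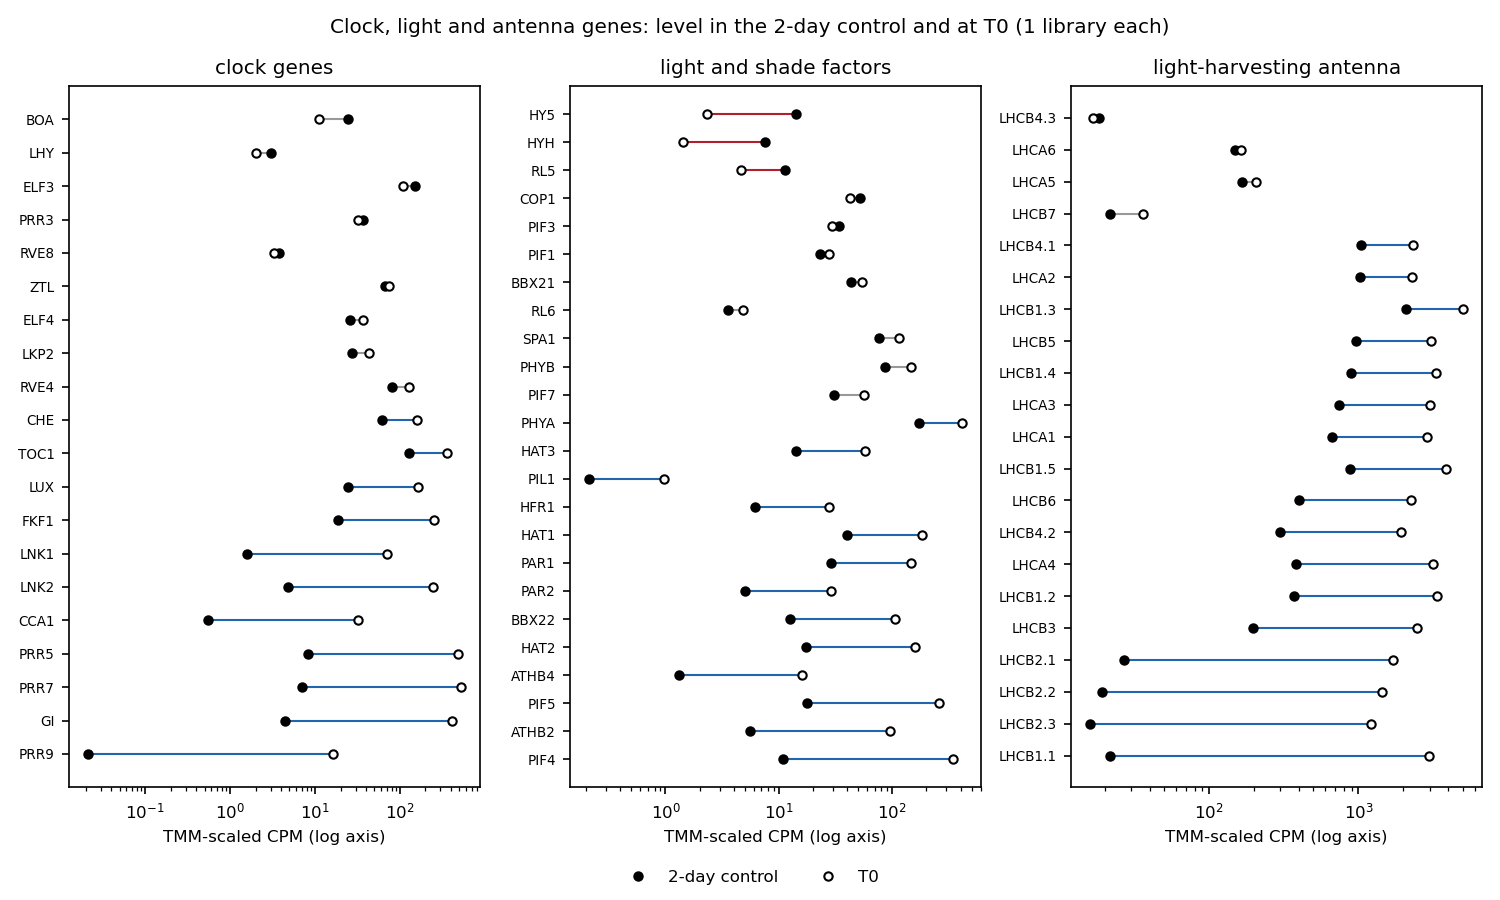
Level of clock, light and antenna genes in the 2-day control (filled points) and at T0 (open points), in TMM-scaled CPM on a log axis, 1 library each; blue lines join genes called lower, red lines genes called higher, grey lines neither. Of the genes drawn, those of the clock, phytochrome and antenna lists, the longest blue lines belong to PRR9, LHCB1.1 and GI, which were 776, 136 and 94.9 times lower in the 2-day control.

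Genes that mark a lack of sugar were lower in the 2-day control. Of 16 sugar starvation genes, 12 were lower and 0 higher (median -1.69). ASN1, an asparagine synthetase that is repressed by sugar, had 109 CPM in the 2-day control, against 2272 CPM at T0, 20.8 times lower (20.3 to 21.4). TPS11, a trehalose phosphate synthase family member, was 6.28 times lower (6.09 to 6.48), and SEN1 4.69 times (4.57 to 4.82). DIN10, a raffinose synthase family gene named for its induction in the dark, had 1137 CPM in the 2-day control, against 2646 CPM at T0, 2.33 times lower (2.30 to 2.35). The catalytic subunit gene SNRK1.1 of the starvation-sensing kinase had 72.5 CPM in the 2-day control, against 74.7 CPM at T0, and 0 of 17 autophagy genes passed in either direction.

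Starch and sugar transport genes had calls in both directions. Of 28 starch genes, 6 were lower (21.4%, beside 8.21% of all measured genes) and 2 higher (7.14%, beside 9.06%). AMY3, a plastid amylase, was 3.88 times lower (3.78 to 3.99) and the dikinase gene GWD1, which opens the granule surface, 2.14 times (2.11 to 2.17). APL3, a subunit of the enzyme that commits carbon to starch, was 3.04-fold higher (2.80 to 3.31), and the amylase gene BAM5 had 12.2 CPM in the 2-day control, against 0.183 CPM at T0, 66.6-fold (32.1 to 166). Of 25 genes of sugar transport and sucrose metabolism, 5 were higher and 5 lower. GPT2, which imports glucose phosphate into plastids and is known to follow sugar, was 4.42-fold higher (3.44 to 5.75), and the sucrose exporter gene SWEET11 3.69-fold (3.56 to 3.83). The hexose importer gene STP1 had 490 CPM in the 2-day control, against 1743 CPM at T0, 3.56 times lower (3.50 to 3.61). SUC2, which loads the phloem, was neither.

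Among lists with at least 8 measured members, the cold genes had the largest share of lower ones: 20 of 24 (83.3%) and 0 higher (median -2.52). The lists were chosen with earlier results of these data known, so this rank is a description and not a test. CBF1, CBF2 and CBF3 encode the AP2 factors that start the cold response. CBF1 had 0.381 CPM in the 2-day control, against 53.3 CPM at T0, 139.7 times lower (88.2 to 236), CBF2 was 334 times lower (169 to 774) and CBF3 139.7 times (67.5 to 349). Their targets were lower as well. COR78, also named RD29A, had 27.4 CPM in the 2-day control, against 1313 CPM at T0, 48.0 times lower (45.4 to 50.8). COR47, a dehydrin gene, had 240 CPM in the 2-day control, against 1546 CPM at T0, 6.45 times lower (6.32 to 6.58), and LTI30 was 124 times lower (87.1 to 183). The galactinol synthase gene GOLS3, of raffinose synthesis, had 1 count in the 2-day control, against 1156 at T0, 1431 times lower with an interval of 256 to 56557. ICE1, the factor upstream of the CBF genes, had 57.7 CPM in the 2-day control, against 62.0 CPM at T0 and was neither. No cold treatment is in the labels.

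Abscisic acid and dehydration genes overlapped with this set through RD29A and were lower in 15 of 30 cases, with 0 higher (median -1.13). NCED3, the rate-limiting enzyme of abscisic acid synthesis under drought, had 6.25 CPM in the 2-day control, against 57.5 CPM at T0, 9.20 times lower (8.15 to 10.4). CYP707A3, which breaks the hormone down, was 6.87 times lower (6.17 to 7.65). ABF3, a factor that carries the response, was 3.89 times lower (3.62 to 4.18) and RD29B 36.4 times (15.2 to 114). Among other synthesis genes, ABA1 (ZEP) was 13.3 times lower (12.7 to 13.8), and ABA2, ABA3 and AAO3 were neither. The phosphatase gene HAB1, a brake on the response, was neither as well.

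Touch and rapid stress genes followed the same direction, 10 of 20 lower and 1 higher (median -1.20). CML38, a calmodulin-like calcium sensor, had 6.35 CPM in the 2-day control, against 70.2 CPM at T0, 11.0 times lower (9.80 to 12.5), and the zinc finger gene SZF1 was 6.98 times lower (6.71 to 7.26). Of 27 factors known from wounding and regeneration, 13 were lower and 5 higher (median -1.18). The lower members included the rapidly induced genes RRTF1, 17.1 times (13.1 to 22.8), WRKY40, 11.9 times (10.7 to 13.2), and WRKY33, 7.69 times (7.34 to 8.07). The higher members included WRKY60, at 29.9 CPM in the 2-day control, against 0.341 CPM at T0, 87.7-fold (51.1 to 165), and RAP2.6L, 42.8-fold (22.4 to 94.2), a factor needed for rejoining of cut stems. WIND1, a factor of callus formation at wounds, had 237 CPM in the 2-day control, against 231 CPM at T0.

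Auxin response genes were lower without exception among those that passed: 20 of 27 were lower and 0 higher (median -3.25). IAA29, a repressor of the auxin response that is induced by PIF factors, had 0.953 CPM in the 2-day control, against 72.4 CPM at T0, 76.0 times lower (56.6 to 104). IAA19 was 18.8 times lower (15.5 to 23.0), IAA1 7.57 times (6.62 to 8.69) and IAA2 4.81 times (4.60 to 5.02). The growth genes SAUR19 to SAUR24, which activate the plasma membrane proton pump, were all lower, from 11.1 times for SAUR24 (8.00 to 15.8) to 63.4 times for SAUR22 (34.2 to 133). GH3.2, GH3.3 and GH3.5, which conjugate auxin to amino acids, were lower by 29.8 times (18.9 to 50.01), 10.5 times (8.67 to 12.9) and 9.51 times (8.26 to 11.0). IAA7, IAA13 and IAA17 were neither. In the SAUR family as a whole, 24 of 57 were lower and 9 higher; SAUR63 and SAUR68 have near-identical copies and are uncertain. SAUR36, known for its rise in senescing leaves, was among the higher ones at 12.0-fold (7.93 to 19.0).

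Auxin synthesis genes differed in direction, also within 1 step. Of 27 synthesis and transport genes, 7 were lower and 4 higher. The flavin monooxygenase genes YUC8, YUC5 and YUC9 make auxin in the last step. They were lower by 24.6 times (19.1 to 32.3), 10.7 times (8.70 to 13.2) and 9.36 times (7.51 to 11.8). YUC3 had 0 counts in the 2-day control, against 37 at T0, at least 11.8 times lower. YUC6 was 2.71-fold higher (2.19 to 3.38). The nitrilase gene NIT2 had 147 counts in the 2-day control, against 3 at T0, a ratio of 39.6 (13.3 to 194). TAA1, which supplies the substrate of the YUC enzymes, and the efflux carrier genes PIN3, PIN4 and PIN7 were neither.

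**Figure D4:**
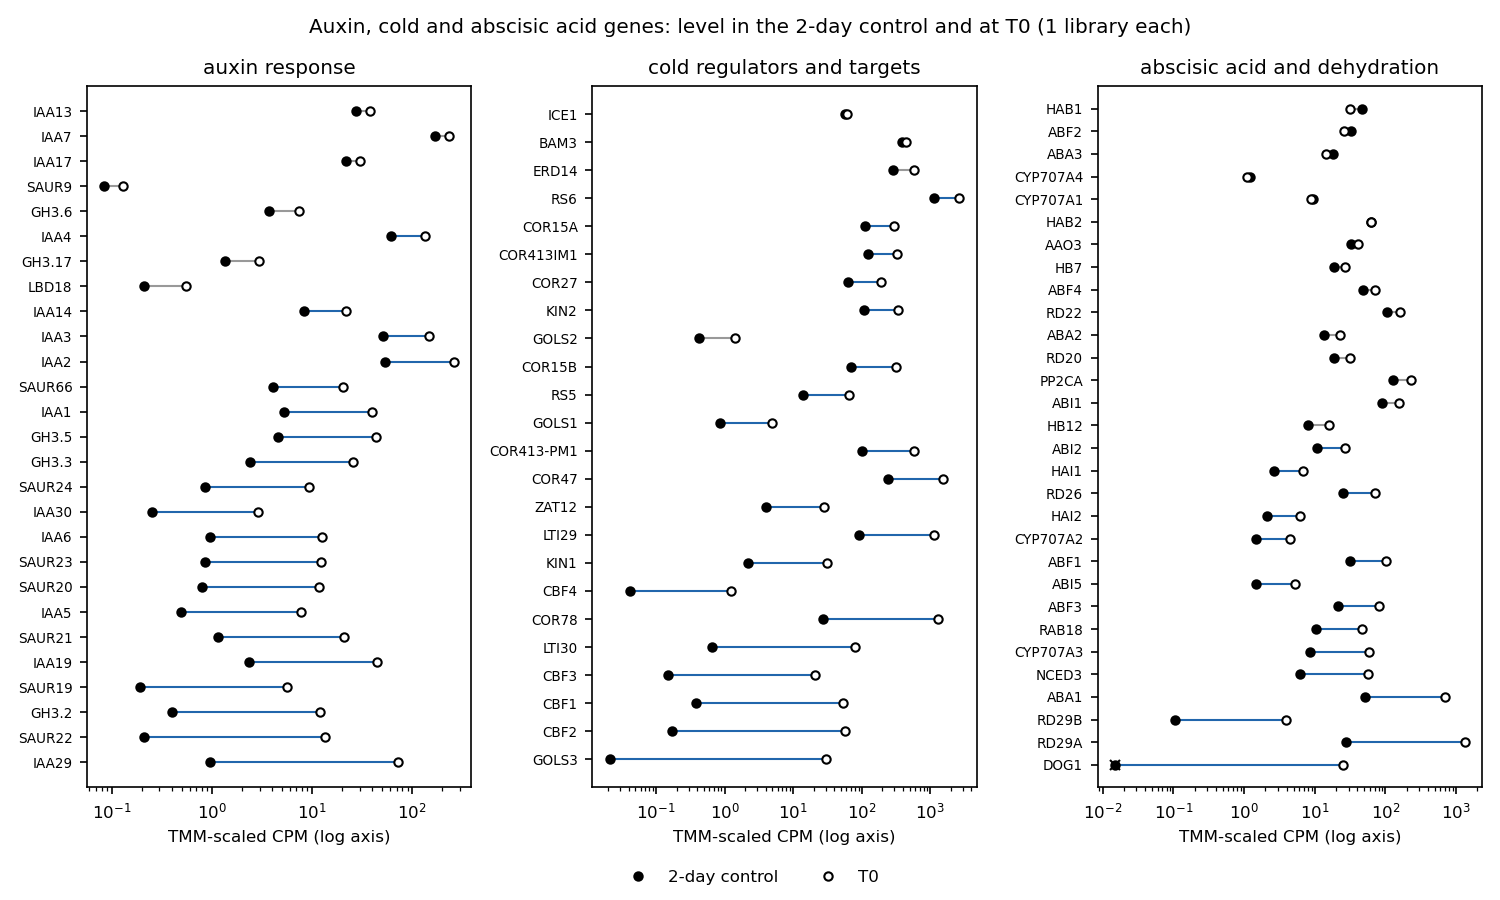
Level of auxin, cold and abscisic acid genes in the 2-day control (filled points) and at T0 (open points), in TMM-scaled CPM on a log axis, 1 library each; blue lines mark genes called lower, grey lines neither, and a cross marks a library at 0. In the 3 lists no member was called higher, and 20 of 27, 20 of 24 and 15 of 30 members were lower.

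Cytokinin genes had calls in both directions, whereas ethylene and gibberellin genes held more lower than higher calls. Of 27 cytokinin genes, 5 were higher and 4 lower. ARR16, a response regulator, had 29.1 CPM in the 2-day control, against 2.99 CPM at T0, 9.75-fold (8.05 to 11.9), and the GATA factor genes GNL and GNC, which promote greening, were 7.84-fold (6.93 to 8.91) and 5.01-fold (4.62 to 5.44) higher. IPT3, which makes the cytokinin precursor, was 5.10-fold higher (4.32 to 6.05), and CKX5, which degrades the hormone, 13.6 times lower (9.97 to 19.1). The type-A response regulator genes ARR4, ARR5, ARR6, ARR7 and ARR15 were neither. In the ethylene list 9 of 28 were lower and 1 higher: the synthase genes ACS4, ACS6 and ACS8 were 22.2 times (14.4 to 35.8), 5.30 times (4.89 to 5.75) and 7.73 times (6.24 to 9.67) lower, and the receptor gene ETR2 was 2.22-fold higher (2.00 to 2.45). Gibberellin genes were 2 of 24 higher and 6 lower, and brassinosteroid genes 2 of 20 higher and 4 lower.

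Jasmonate synthesis genes held mostly lower calls, and output genes more higher ones. Of 21 genes for synthesis and breakdown, 7 were lower and 1, LOX2, was higher. The lipoxygenase genes LOX3 and LOX4 were 4.05 times (3.84 to 4.28) and 7.003 times (6.46 to 7.60) lower, and CYP94B3, which inactivates the hormone, 12.5 times (10.7 to 14.7). Of 28 signalling and output genes, 10 were higher and 5 lower. The output genes VSP1 and VSP2, for vegetative storage proteins, were 15.2-fold (12.5 to 18.8) and 7.09-fold (6.40 to 7.86) higher, and CORI3 had 473 CPM in the 2-day control, against 44.6 CPM at T0, 10.6-fold (10.1 to 11.2). The rapidly induced repressor genes JAZ1, JAZ5 and JAZ7 were lower, by 2.75 times (2.62 to 2.88), 2.31 times (2.05 to 2.59) and 3.36 times (2.88 to 3.93). MYC2, the central activator, was 2.79 times lower, but 98.5% of its exon bases lie under an opposite gene model and its counts are uncertain.

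In the salicylate list 6 of 21 were higher and 3 lower. PR1, the standard marker of the salicylate response, had 37 counts in the 2-day control, against 0 at T0, at least 7.71-fold higher. The glucanase gene PR2 had 115 counts in the 2-day control, against 1 at T0, a ratio of 92.9 (16.3 to 3702). SARD1, which activates salicylate synthesis, was 4.18-fold higher (3.43 to 5.13), while its relative CBP60g was 5.41 times lower (4.79 to 6.12) and the synthesis gene ICS1 was neither.

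Among lists with at least 8 measured members, chosen with earlier results known, sulphur genes had the largest share of higher members. They held 12 of 19 higher (63.2%) beside 0 lower (median 1.87). SDI1, a repressor of glucosinolate synthesis that is induced by sulphur deficiency, had 14.7 CPM in the 2-day control, against 0.315 CPM at T0, 46.7-fold (26.5 to 90.7). LSU1, LSU2 and LSU3, small proteins named for their response to low sulphur, had 66, 468 and 162 counts in the 2-day control against 1, 16 and 1 at T0. The ratio was 53.3 (9.24 to 2138) for LSU1, LSU2 was 23.6-fold higher (14.4 to 41.7), and LSU3 had a ratio of 131 (23.2 to 5202). The reductase genes APR1, APR2 and APR3, the regulated step of sulphate assimilation, were 6.13-fold (5.52 to 6.83), 3.44-fold (3.26 to 3.64) and 7.37-fold (6.83 to 7.95) higher. SULTR1;2, the main sulphate importer of roots, and the vacuolar exporter genes SULTR4;1 and SULTR4;2 were higher by 4.66-fold (3.86 to 5.67), 3.24-fold (3.005 to 3.50) and 3.66-fold (3.10 to 4.34). The sulphite reductase gene SIR, at 361 CPM in the 2-day control, against 233 CPM at T0, did not reach the limit.

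Among iron genes, some regulators were called higher and some genes of the storage list lower. Of 13 iron deficiency regulators, 5 were higher and 0 lower. bHLH38, bHLH39, bHLH100 and bHLH101, which pair with FIT to turn on iron uptake, reached 18.0, 15.0, 20.04 and 11.4 CPM in the 2-day control, against 0.210, 0.105, 1.57 and 4.59 CPM at T0. Of these, bHLH39 was the farthest apart, at 143-fold (55.5 to 525), and bHLH38 was 85.9-fold higher (43.4 to 199.5). In the explants the same genes were at or close to 0, with 1 count of bHLH39 and 0 of the other members. FIT itself, a root gene, had 37 counts in the 2-day control, against 34 at T0. PYE, a further regulator of the list, was 3.50-fold higher (3.17 to 3.88).

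Of 25 genes of iron uptake and transport, 8 were higher, or 4 with an interval at an error rate of 0.001, and 4 lower. OPT3, which loads iron into the phloem, had 421 CPM in the 2-day control, against 130 CPM at T0, 3.24-fold (3.14 to 3.34), and the nicotianamine synthase genes NAS1 and NAS4 were 21.7-fold (10.8 to 50.9) and 2.64-fold (2.24 to 3.11) higher. The root uptake gene IRT1 had 0 counts in both libraries. Of 9 genes for iron storage and iron superoxide dismutases, 3 were lower and 0 higher: the ferritin gene FER1 was 4.15 times lower (3.95 to 4.35), FER3 2.64 times (2.53 to 2.76), and the iron-sulphur protein gene NEET 5.54 times (5.12 to 6.0). FSD1 was neither. The zinc list had 3 of 10 higher and 0 lower, led by ZIP4 at 2.91-fold (2.28 to 3.76), of which 1 was left at that error rate. Nitrate genes were 3 of 20 higher and 1 lower, with 1 higher under the size factors of DESeq2. The nitrate transporter gene NRT1.1 was 2.43-fold higher (2.35 to 2.53) and the reductase gene NIA1 2.81 times lower (2.75 to 2.86), while NIA2 was neither, at 1323 CPM in the 2-day control, against 1530 CPM at T0. Phosphate and copper genes had at most 2 calls in each direction.

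Anthocyanin synthesis genes were higher, with larger folds at the late steps named here than at the early ones. Of 18 flavonoid enzymes, 11 were higher and 0 lower (median 1.70), with 1 lower under the size factors of DESeq2. DFR, the step committed to anthocyanins, had 1100 counts in the 2-day control, against 1 at T0, a ratio of 889 (159 to 35138). LDOX, the step that follows, had 797 counts in the 2-day control, against 8 at T0, 80.5-fold (40.7 to 187). TT19 (GSTF12), which carries the pigment to the vacuole, had 533 counts in the 2-day control, against 1 at T0, a ratio of 431 (77.0 to 17042). The early enzymes differed less in fold, though not in level. TT4, chalcone synthase, had 42.8 CPM in the 2-day control, against 4.25 CPM at T0, 10.1-fold higher (8.59 to 11.9). DFR reached 23.3 CPM in the 2-day control. TT5 was 3.25-fold higher (2.76 to 3.83), and TT7 and FLS1 were neither. Of 17 regulators, 6 were higher and 1 lower. PAP1 and TT8, activators of the late steps, were 51.7-fold (19.95 to 191) and 18.9-fold (6.19 to 93.6) higher. PAP2 had 226 counts in the 2-day control, against 0 at T0, at least 49.1-fold higher. MYBL2, a repressor of the same steps, had 7.60 CPM in the 2-day control, against 171 CPM at T0, 22.5 times lower (20.2 to 25.1). TTG1 and EGL3, the partners of these MYB factors, did not pass.

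Aliphatic glucosinolates, sulphur-rich defence compounds made from methionine, had 11 of 27 synthesis genes higher and 0 lower (median 0.78). MYB28, their main activator, had 120.0 CPM in the 2-day control, against 20.5 CPM at T0, 5.86-fold (5.44 to 6.32), while MYB29 and MYB76 were neither. MAM3, which lengthens the side chain, had 218 counts in the 2-day control, against 0 at T0, at least 47.3-fold higher. MAM1 was 1.65-fold (1.58 to 1.73) and did not pass. CYP79F2 was 6.14-fold higher (4.35 to 8.90), its neighbour in the pathway CYP83A1 3.58-fold (3.37 to 3.80), and CYP79F1 was neither. The indole branch was mixed, with 7 of 29 higher and 5 lower: CYP79B2 and CYP83B1, its entry enzymes, were 3.001-fold (2.80 to 3.22) and 2.61-fold (2.51 to 2.71) higher, and CYP81F2, which modifies the products during defence, was 14.5 times lower (11.9 to 17.9).

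**Figure D5:**
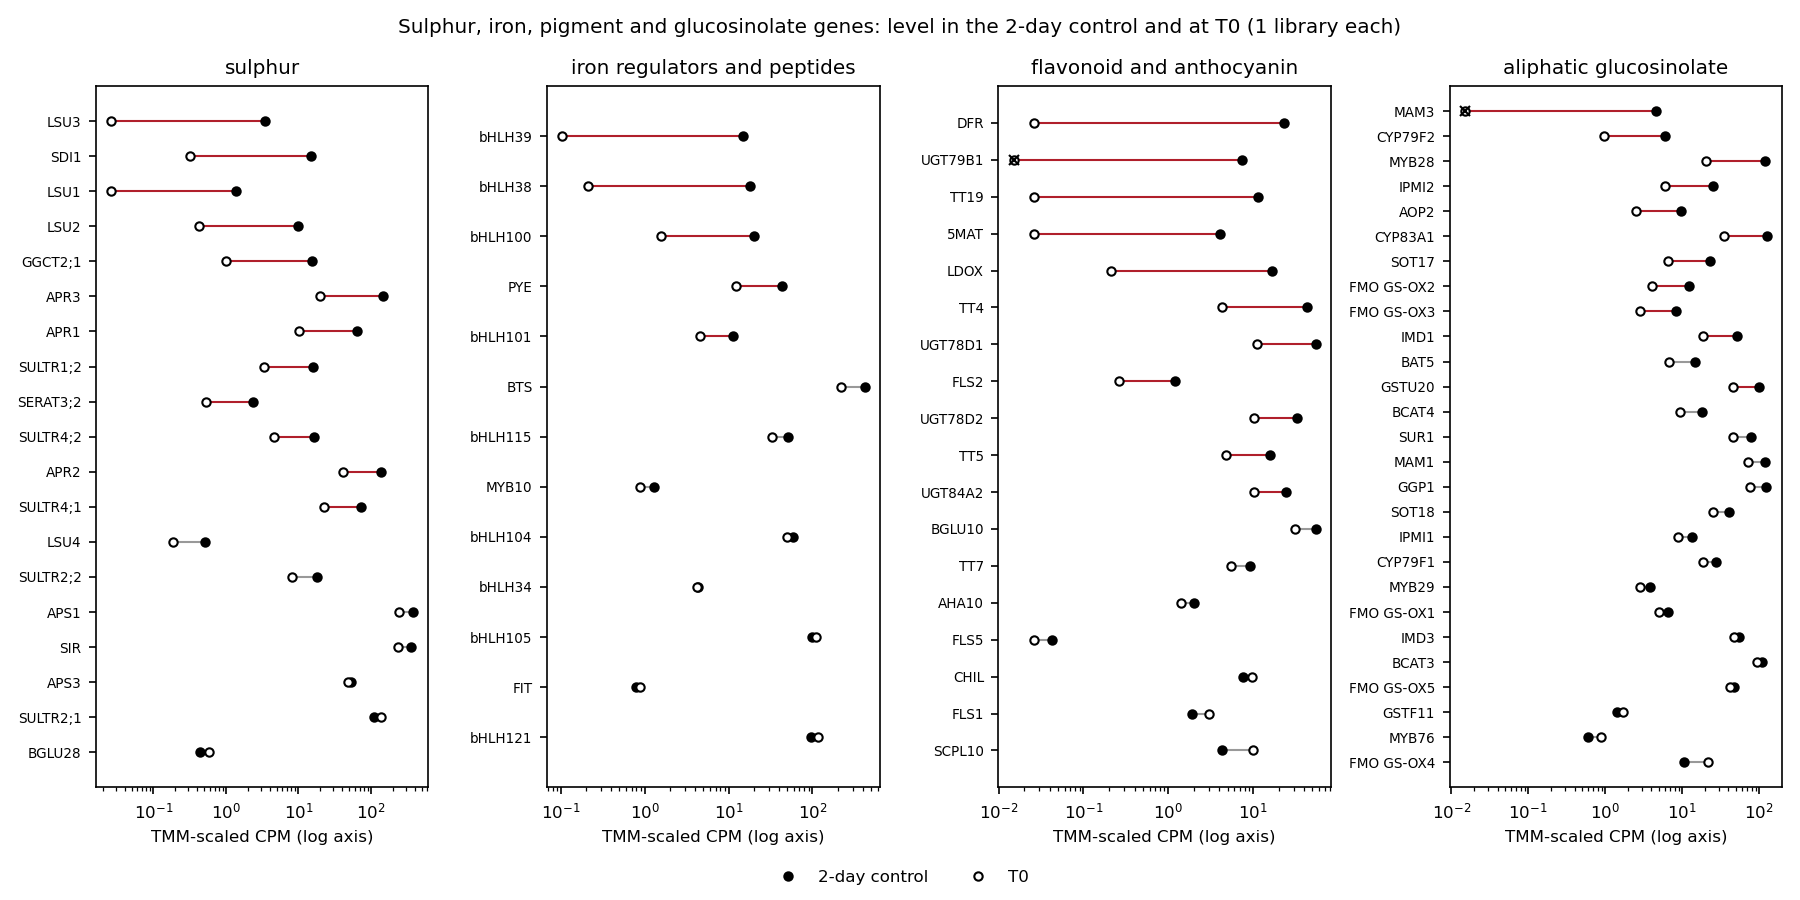
Level of sulphur, iron, pigment and glucosinolate genes in the 2-day control (filled points) and at T0 (open points), in TMM-scaled CPM on a log axis, 1 library each; red lines mark genes called higher, blue lines lower, grey lines neither, and a cross marks a library at 0. The late anthocyanin genes sit near 1 count at T0, as DFR did with 1 count beside 1100 in the 2-day control.

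Families of detoxifying and modifying enzymes held more higher than lower members. Of 51 UDP-glycosyltransferases, which attach sugars to small molecules, 15 were higher and 0 lower (median 0.72), and of 36 tau and phi glutathione transferases 13 were higher and 1 lower (median 0.93). UGT73B2 had 89.2 CPM in the 2-day control, against 5.01 CPM at T0, 17.8-fold (15.4 to 20.7), and GSTU24 was 18.8-fold higher (12.7 to 29.1). Cytochrome P450 genes were 28 of 133 higher and 11 lower. CYP81D11, known to respond to xenobiotics, was 15.3-fold higher (13.5 to 17.3), and the hydroperoxide lyase gene HPL1 29.7-fold (23.5 to 38.1). UGT75B1, UGT74D1, GSTF2 and CYP81K2 lie for the most part under opposite gene models and are uncertain.

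Secreted defence proteins and lectins also held more higher than lower members. Of 17 jacalin lectins, 7 were higher and 0 lower (median 1.10), and their summed level was 934 CPM in the 2-day control, against 271 CPM at T0. The summed levels of the next families were not higher, at 3457 CPM in the 2-day control, against 3469 CPM at T0, for lipid transfer proteins, and 500.4 CPM in the 2-day control, against 669 CPM at T0, for defensins. JR1, a jasmonate-responsive member, had 250.1 CPM in the 2-day control, against 27.3 CPM at T0, 9.16-fold (8.60 to 9.77). Of 48 lipid transfer proteins, 15 were higher and 6 lower. LTP2, an epidermal member, had 111 CPM in the 2-day control, against 0.550 CPM at T0, 201-fold (131 to 325), and EARLI1 was 90.2-fold higher (65.3 to 128). Of 20 defensins, 7 were higher and 3 lower. PDF1.4 had 28.5 CPM in the 2-day control, against 0.760 CPM at T0, 37.5-fold (26.0 to 56.2). Among 26 defence receptors and response genes, 6 were higher and 5 lower, with 1 lower under total counts. The wall-associated kinase gene WAK1 had 209 CPM in the 2-day control, against 4.17 CPM at T0, 50.1-fold (42.8 to 59.0), while SOBIR1, a partner of receptor-like proteins, was 2.23 times lower (2.14 to 2.33). Of 24 senescence genes, 3 were higher and 6 lower. ORE1, a NAC factor that promotes leaf senescence, was 3.17-fold higher (2.75 to 3.68) and the related factor NAP 3.64 times lower (3.14 to 4.22).

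Wall genes changed in both directions. Of 11 extensins and their modifying enzymes, 3 were higher and 0 lower. EXT1 and EXT3, structural wall proteins, had 129 and 38.5 CPM in the 2-day control against 3.07 and 0.917 CPM at T0, 41.9-fold (34.9 to 50.8) and 41.9-fold (30.05 to 60.4). Of 41 expansins and XTH enzymes, which loosen and rejoin the wall, 8 were higher and 8 lower. EXPA10 was 5.46-fold higher (4.91 to 6.08) and XTH25 4.92-fold (4.36 to 5.57), whereas XTH15 was 6.24 times lower (5.87 to 6.63) and EXPB1 5.60 times (4.23 to 7.52). Class III peroxidases were 11 of 40 higher and 4 lower. PRX52, linked to lignin, had 203 counts in the 2-day control, against 5 at T0, 32.8-fold (13.8 to 102). Laccases, which polymerise lignin, were 4 of 11 lower and 0 higher. Cuticular wax genes were 3 of 33 lower (9.09%, near the 8.21% of all measured genes) and 0 higher.

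Genes of DNA replication held more higher than lower calls, and no mitotic gene passed. Of 34 S phase genes, 8 were higher and 2 lower (median 0.96), and with total counts 16 were higher and 1 lower. The ribonucleotide reductase genes RNR1 and TSO2, which supply deoxynucleotides, were 3.31-fold (3.05 to 3.60) and 2.85-fold (2.64 to 3.07) higher, and the helicase subunit gene MCM3 3.13-fold (2.80 to 3.50). CYCD1;1 and the licensing factor gene CDC6 were lower, by 2.53 times (2.29 to 2.80) and 3.82 times (3.26 to 4.49). The 36 mitotic genes gave 0 calls in either direction (median 0.21), and 1 higher with total counts. Among those not called, CYCB1;1, a mitotic cyclin, had 71 counts in the 2-day control, against 54 at T0, 1.06-fold (0.735 to 1.54). The syntaxin gene KNOLLE had 8.62 CPM in the 2-day control, against 9.52 CPM at T0.

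Some inhibitors of cyclin-dependent kinases were higher in the 2-day control. Of 15 genes that slow division or favour repeated replication without division, 4 were higher and 0 lower (median 1.06): KRP7 by 6.56-fold (4.35 to 10.3), SMR4 by 4.73-fold (2.10 to 12.5), KRP2 by 3.51-fold (2.98 to 4.14) and KRP1 by 3.16-fold (2.87 to 3.48). The anaphase activator genes CCS52A1 and CCS52A2 were neither. Core histones were 4 of 43 higher (9.30%, near the 9.06% of all measured genes) and 0 lower. With an interval at an error rate of 0.001, 1 was higher. Of 264 ribosomal protein genes not named as organellar, 14 were higher (5.30%, below the 9.06% of all measured genes) and 2 lower, with a median of 0.43. With total counts 33 were higher and 1 lower. Of 47 leaf growth and polarity genes, 8 were higher and 6 lower: the coactivator gene GIF1 and its partner GRF3, which sustain leaf cell proliferation, were 11.8 times (6.82 to 22.3) and 3.16 times (2.91 to 3.43) lower, and the boundary gene CUC3 had 27 counts in the 2-day control, against 1 at T0, a ratio of 21.8 (3.60 to 893).

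The factor NAC1 and the CEP proteases are known from root formation in leaf explants. NAC1 had 22.5 CPM in the 2-day control, against 3.09 CPM at T0, 7.28-fold higher (6.01 to 8.88), with 30.6 CPM in the explants. CEP1, with 3 counts in the 2-day control beside 1 at T0, and CEP2, with 0 beside 1, were too low to measure. LBD16, a root founder gene, had 0 counts in both libraries. Of 17 root founder and meristem regulators, 2 were higher and 2 lower, PLT7 and NAC1 against CLV1 and TMO5.

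Cell type markers were checked for the make-up of the leaf. Xylem markers were lower in 8 of 14 cases and higher in 0 (median -1.60), with a summed level of 111 CPM in the 2-day control, against 282 CPM at T0. The protease gene XCP2, expressed in maturing vessels, was 3.75 times lower (3.44 to 4.09), the secondary wall cellulose synthase gene CESA8 4.52 times (3.65 to 5.64) and the lignin laccase gene LAC4 5.69 times (4.86 to 6.70). ATHB8, a marker of procambium, had 37.6 CPM in the 2-day control, against 42.9 CPM at T0. The part of vessel content in other results was not tested.

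The other marker lists held few calls. Of 10 mesophyll and bundle sheath markers 2 were lower, both of them antenna genes, and 0 higher, with summed levels of 7887 CPM in the 2-day control, against 12430.1 CPM at T0. Of 12 phloem markers 1, SWEET11, was higher and 0 lower. Guard cell markers were 1 of 10 lower (KAT1, 2.14 times) and 0 higher, stomatal lineage markers 1 of 8 lower and 0 higher, and epidermis markers 1 of 9 higher and 1 lower. In the trichome list 1 of 9 was higher and 1 lower. The root hair genes RHD6, RSL4 and LRX1 and the shoot meristem genes STM, WUS and CLV3 had 0 counts in both libraries. PYK10, a root glucosidase gene, was 2.64-fold higher (2.45 to 2.85), at 64.5 CPM in the 2-day control, against 24.4 CPM at T0. The mesophyll genes CA1 and RBCS1A were abundant in both libraries, with 2182 and 2022 CPM in the 2-day control, against 2330.1 and 2379 CPM at T0.

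The examples in this paragraph, some of them members of the lists above, were chosen after their values were seen. At the edge of detection, 29 genes had 0 counts at T0 and at least 30 in the 2-day control, and 13 had the reverse. RLP38, a receptor-like protein gene, with 223 counts, and the glucanase gene BG3, with 159, were among those seen in the 2-day control alone. ACS5, an ethylene synthesis gene, had 0 counts in the 2-day control, against 62 at T0, at least 20.2 times lower. Runs of at least 3 neighbouring genes called in 1 direction also occurred, up to 6 genes long for lower calls and 5 for higher ones. Neighbours here are measured genes in the order of locus numbers, with genes not measured skipped. How many runs the shares of called genes alone would give was not tested. One run of 5 lower genes consisted of SAUR genes around SAUR63. Another joined CBF2, CBF3 (DREB1A) and CBF1 with the splicing factor gene RS40. Higher runs included CNGC3, CNGC11 and CNGC12, cyclic nucleotide-gated channels, of which CNGC11 had 80.8 CPM in the 2-day control, against 1.81 CPM at T0, 44.7-fold (35.2 to 57.6). Among gene classes, 17 of 104 genes annotated as ncRNA were higher and 2 lower, beside 1757 higher and 1615 lower of 19405 protein-coding genes.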

How the data were processed

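The deposited files hold raw counts of reads per gene, made by the authors with HTSeq; the submitters' processing notes name FastQC, HTSeq, DESeq and the TAIR10 build without versions. The aligner, annotation release, library kit and strand setting were not given in the sources used here, so overlapping genes on opposite strands cannot be separated. Lines that name no gene were left out: relative to the gene total, ambiguous reads came to 2.25% in the 2-day control, against 2.24% at T0, and reads outside genes to 0.787% in the 2-day control, against 0.697% at T0. All 279 organelle genes were at 0.

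TMM factors from edgeR 4.0.16 (R 4.3.3) over the 3 libraries were 1.047 for the 2-day control and 0.885 for T0. CPM and log2 ratios (prior count 0.5) were computed here from the deposited counts, with scipy 1.17.1 for the exact intervals. The filter of 30 counts alone passes 20109 genes; the further condition of 1 count in the compared pair left 20012. Alternatives were DESeq2 1.42.0 size factors, total counts, other filters, fold limits and interval widths, and thinning.

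The 70 lists and 15 families, with 2817 genes of which 2103 were measured, were chosen with earlier results of these data known, and 113 of 1746 names matched no gene. Named genes are the 12 farthest past the limit in each direction, up to 3 per list and direction, NAC1, CEP1 and CEP2, and other members of lists whose counts stand in the same paragraph. Gene names and overlaps came from the RefSeq annotation of TAIR10.1, matched by locus for 32835 genes. Transcripts of at least 95% identity over 50% of their length counted as near-identical copies.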

Additional observations from a re-analysis of the deposited data

How the results depend on the processing

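With the interval required to clear 1.5-fold, 3310 genes were higher and 2763 lower in the 2-day control; with 4-fold, 472 were higher and 552 lower, since the limit itself is part of the count. Under the other alternatives the counts stayed within 1.5 times, from 1376 (interval at an error rate of 0.001 in place of 0.05) to 2546 (total counts) higher, and from 1214 (total counts) to 1744 (DESeq2 size factors) lower. Of the 3456 calls, 96.7% were kept with DESeq2 size factors, 97.5% with TMM over the 2 libraries alone, 90.3% with the 100 most abundant genes left out of the totals, 87.6% with total counts, 80.1% with the wider interval and 98.8% with the 2-day control thinned to the T0 total. No call among 441 genes followed through the alternatives turned to the opposite direction; 160 lost it with 4-fold, 30 with the wider interval, 24 with total counts, 14 with the 100 most abundant genes left out, 6 with DESeq2 size factors, 5 with TMM over the 2 libraries and 1 with thinning. The medians of 18 lists changed sign under at least 1 scaling or prior, all of them lists whose median lay within 0.25 of 0. Depth limits genes under about 30 counts, where the interval is wide. No paired analysis was possible because each group has 1 library, and no library could be left out for the same reason.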

Other observations

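The counts of further gene groups stand beside the 9.06% of all measured genes that were higher and the 8.21% that were lower, and several lie near these shares. Of 31 genes of oxidative stress and detoxification, 7 were higher and 5 lower, or 2 lower with total counts. All the higher members were glutathione transferases, among them GSTU1 at 3.75-fold (3.18 to 4.45), whereas the catalase gene CAT1 had 60.7 CPM in the 2-day control, against 335 CPM at T0, 5.52 times lower (5.30 to 5.75), and the alternative oxidase gene AOX1A was 3.80 times lower (3.59 to 4.03). Of 19 genes of glutamine, glutamate and asparagine metabolism, 2 were higher, or 6 with total counts, and 4 lower. Besides ASN1, the proline synthesis gene P5CS1 had 99.99 CPM in the 2-day control, against 691 CPM at T0, 6.92 times lower (6.70 to 7.13), and GDH2, a glutamate dehydrogenase, was 5.37 times lower (5.18 to 5.56). The ammonium transporter gene AMT2 was 4.77-fold higher (4.32 to 5.27). Of 33 UMAMIT transporters, which move amino acids across membranes, 6 were higher and 3 lower. UMAMIT45 was 6.25-fold higher (5.36 to 7.32), and UMAMIT33 had 2.20 CPM in the 2-day control, against 44.7 CPM at T0, 20.3 times lower (16.7 to 25.005).

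Stress and transcription factor families split. In the WRKY family 9 of 52 were higher and 9 lower: WRKY57 was 7.11-fold higher (5.47 to 9.37) and WRKY22, of immune signalling, 6.74 times lower (6.13 to 7.42). In the NAC family 11 of 71 were higher and 12 lower. NAC071, known from wounded stems, had 63 counts in the 2-day control, against 0 at T0, at least 13.4-fold higher. RD26, which responds to drought, was 2.88 times lower (2.69 to 3.08). Of 22 heat and folding genes 3 were higher, or 6 with total counts, and 5 lower. The chaperone genes BIP1 and BIP2 of the endoplasmic reticulum, which are near-identical and may share reads, were 3.22-fold (3.07 to 3.36) and 3.26-fold (3.07 to 3.46) higher, and DREB2A, an activator of heat and drought genes, was 13.5 times lower (11.3 to 16.3). Of 15 low oxygen genes 5 were higher, or 3 with the size factors of DESeq2, and 2 lower: the oxygen-responsive factor gene RAP2.2 had 224 CPM in the 2-day control, against 95.7 CPM at T0, 2.34-fold (2.25 to 2.43), and PDC2, of fermentation, was 3.89 times lower (3.73 to 4.06). Of 15 pectin enzymes 3 were higher and 0 lower, among them the methylesterase gene PME3 at 615 CPM in the 2-day control, against 224 CPM at T0, 2.74-fold (2.67 to 2.81).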
